A study of Arabidopsis thaliana with 43 samples.

Results

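In whole embryos of Arabidopsis thaliana, the thale cress, 58 genes were read mainly at the preglobular stage, the youngest stage sampled, when the embryo has 8 or 16 cells. They were chosen by a level rule among 32222 nuclear genes. Levels are given as CPM, the estimated read counts of a gene after each library was scaled to a common sum over nuclear genes. A gene was taken when its mean over the preglobular libraries was 10 CPM or more and at least 5 times the mean, plus 0.1, of each other stage. The preglobular levels and their ratio to other stages therefore describe the choice and carry no test.

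All embryos were wild type of the accession Col-0, from plants grown at 20 to 22 °C with 16 h of light. Total RNA came from 50 pooled embryos per sample. The stages, in order of age, were preglobular and globular, then early and late heart, early and late torpedo, bent cotyledon and at last mature green, named for embryo shape or colour, with 3 biological replicates each, made into libraries with Smart-seq2, a method that copies and amplifies polyadenylated RNA. Bent-cotyledon RNA at 5 ng stands for that stage, and RNA of the same stage was also diluted to 1, 0.5 and 0.1 ng (Smart-seq2, 3 replicates each) or prepared with the Ovation and SMARTer kits (1 library at each of 5 inputs per kit). The titles number 3 mature green replicates while the descriptions call each the first, so the spread at that stage may leave out differences between collections. The p-values below measure the spread between these pooled samples.

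After fertilization the zygote divides unequally. The upper cell founds most of the embryo and the lower cell founds the suspensor, a short file of cells that attaches the embryo to the surrounding seed, and by the preglobular stage these lineages already differ in the homeobox genes they use. From the globular stage onward the suspensor stops growing and becomes a small share of the sample, while the embryo proper divides, forms cotyledons and at last fills with storage reserves. In pooled whole embryos, fewer cells of a type and less RNA per cell cannot be told apart.

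The 24 stage libraries held 6965826 to 34504622 nuclear counts and the 19 others 897198 to 10531572. Markers of other seed tissues were checked at the preglobular stage. Of 17 endosperm genes 13 had a mean below 1 CPM, as had 10 of 19 seed coat genes and 5 of 8 egg or synergid genes. Of all 32222 nuclear genes 16261 had 1 CPM or more, so the seed coat share is near that of all genes. At every stage 10 endosperm, 8 seed coat and 5 egg or synergid genes were below 1 CPM, and these say little of the preglobular stage. The summed level of the endosperm list was 24.6 to 38.4 CPM in the preglobular libraries and 29.8 to 45.2 CPM in the globular libraries. That of the seed coat list was 159 to 214 CPM in the preglobular libraries and 103 to 152 CPM in the globular libraries, and SHP1 gave most of it in the preglobular libraries. The egg and synergid list summed to 8.69 to 9.98 CPM in the preglobular libraries and 4.74 to 5.30 CPM in the globular libraries. None of these list genes is among the 58, and neither is any of 15 genes of apical embryo patterning or 15 genes of the wound and handling response.

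The 58 genes spanned a wide range of levels. Their preglobular means ran between 10.3 and 1687 CPM with a median of 25.0 CPM, and the ratio to the next highest stage ran between 5.01 and 39.7 with a median of 7.10. The next highest stage was globular for 47 genes, early torpedo for 5, and late torpedo, bent cotyledon or mature green for 2 each. For 57 of the 58 the lowest preglobular library lay above every library of the other stages, which was also so for 9.51% of the 9847 genes with 10 CPM or more at the preglobular stage. The exception was AGP41, described below. The heat map of single libraries shows the bright preglobular block and the weaker globular one.

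**Figure D1:**
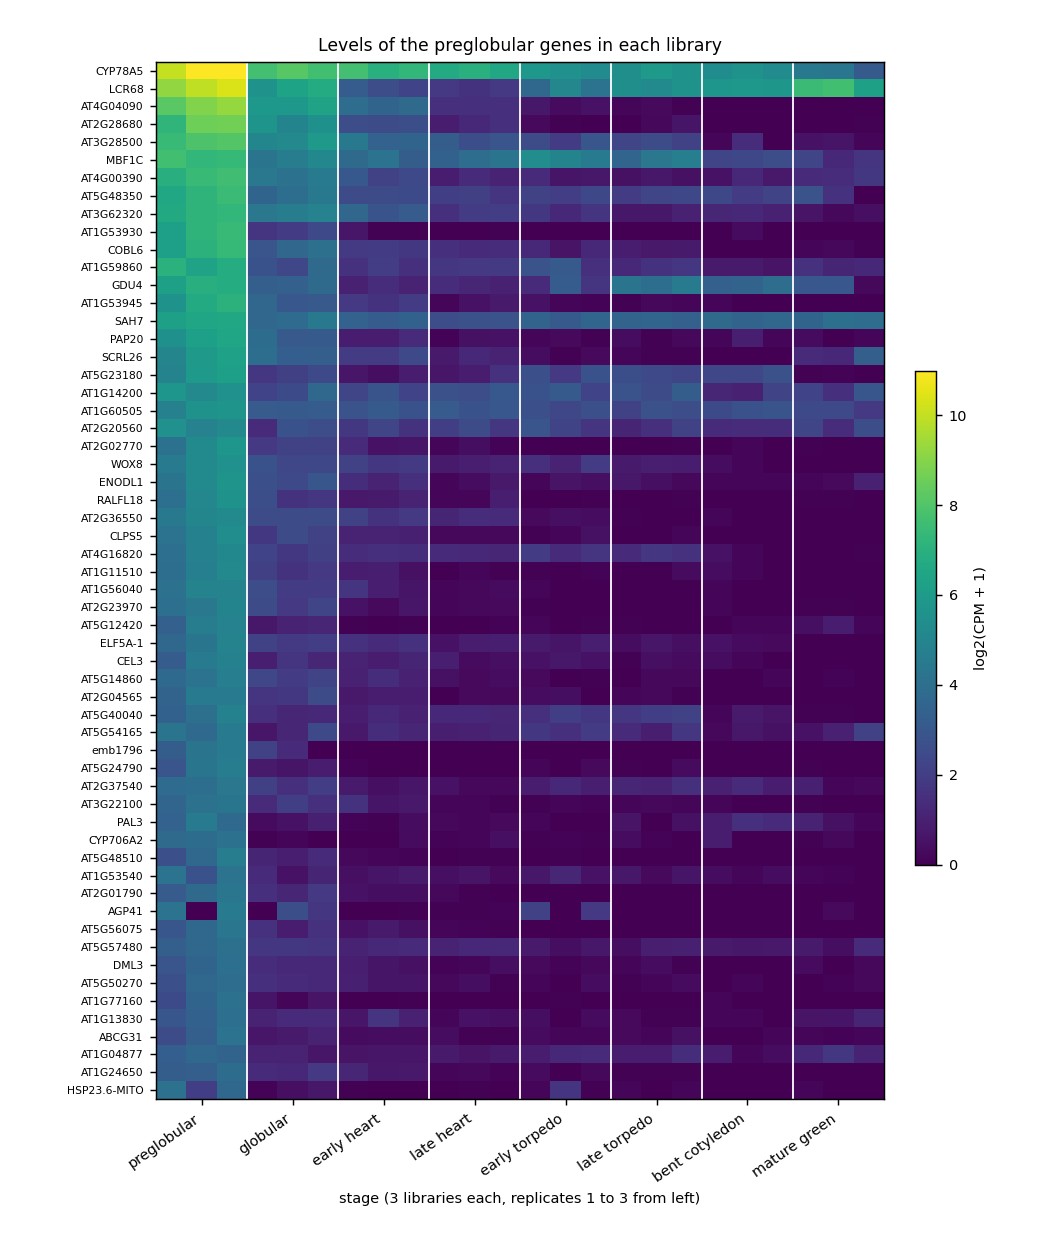
Level of each of the 58 genes (rows, ordered by preglobular mean) in each of the 24 Smart-seq2 stage libraries (columns, 3 per stage), as log2(CPM + 1). The first 3 columns are the brightest in 57 rows, and AGP41 is the row with a dark cell in preglobular replicate 2.

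Reads of the set were concentrated in a pair of genes. CYP78A5 and LCR68 together held 45.2% of the summed preglobular CPM. CYP78A5 (AT1G13710, chromosome 1, minus strand), also known as KLUH, encodes a cytochrome P450 that promotes the growth of plant organs. It stood at 1034, 2038 and 1991 CPM in the preglobular libraries, at 211, 284 and 202 CPM in the globular libraries and at 206, 127 and 153 CPM in the early heart libraries. At mature green it stood at 20.8, 19.2 and 7.62 CPM, so that it was still read in every stage library.

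LCR68 (AT2G02130), which encodes a small cysteine-rich protein of the plant defensins, took another course. It stood at 598, 973 and 1336 CPM in the preglobular libraries, at 49.4, 81.7 and 106 CPM in the globular libraries and at 2.52, 2.07 and 2.505 CPM in the late heart libraries. Its mean was then higher at each later stage, with 54.0, 57.7 and 56.1 CPM at bent cotyledon and 181, 200 and 75.1 CPM at mature green. Its low point thus lay in the heart stages, and not at the end of the series. In TPM, which also divides by transcript length, LCR68 had the highest preglobular level of the 58, at 1239 ± 439 TPM (SD, n = 3), followed by CYP78A5 at 735 ± 224 TPM and AT4G04090 at 735 ± 238 TPM, 3 levels whose ranges of mean ± SD overlap.

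AT4G04090, of the BTB/POZ domain proteins, some of which bring targets to ubiquitin ligases, stood at 288, 476 and 610 CPM in the preglobular libraries and at 57.3, 56.4 and 79.6 CPM in the globular libraries. It had no counts in any bent cotyledon or mature green library. AT2G28680, annotated as a cupin protein, stood at 145, 373 and 402 CPM in the preglobular libraries and at 50.9, 29.7 and 44.5 CPM in the globular libraries. From early torpedo onward both were below 1 CPM in every library.

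WOX8 (AT5G45980) is the best known gene of the set. It encodes a homeobox transcription factor of the basal lineage, made in the lower daughter of the zygote and in the suspensor. It stood at 22.7, 37.3 and 45.9 CPM in the preglobular libraries, at 5.90, 4.14 and 4.24 CPM in the globular libraries and at 3.31, 2.46 and 2.67 CPM in the early heart libraries. It reached no counts in the 3 mature green libraries. WOX8 is the only one of 11 genes on a list of basal lineage genes that belongs to the set. WOX9, its close relative, stood at 65.6, 91.0 and 88.5 CPM in the preglobular libraries and at 44.6, 39.2 and 50.9 CPM in the globular libraries, and 8 of the 11 had a higher mean at the preglobular than at the globular stage. On the same list, HDG11 and HDG12 (homeodomain factors), YDA (a kinase of zygote division) and PIN7 (an auxin exporter), had means above 10 CPM at the globular and both heart stages.

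Several genes came in pairs with like annotation. AT1G53930, a ubiquitin-like protein, and AT1G53945, annotated as polyubiquitin-like, are single-exon genes on the minus strand of chromosome 1 with 5506 bases between them. AT1G53930 stood at 72.6, 139 and 169 CPM in the preglobular libraries and at 2.20, 2.79 and 4.36 CPM in the globular libraries. AT1G53945 stood at 49.3, 106 and 132 CPM in the preglobular libraries and at 11.4, 6.90 and 7.30 CPM in the globular libraries. The neighbours rank alike across the preglobular libraries but differ in ratio, 39.4 for AT1G53930 and 11.1 for AT1G53945, and they share no stretch of 31 bases that could make reads ambiguous between them.

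The set also holds pairs with the same annotation, of 60S acidic ribosomal proteins (AT3G28500 and AT5G40040), of storekeeper-related DNA-binding proteins (AT4G00390 and AT1G11510), of ribonuclease H-like proteins (AT5G48350 and AT3G62320), of BTB/POZ proteins (AT4G04090 and AT5G48510) and of HSP20-like chaperones, small heat shock proteins that hold unfolding proteins in solution (AT1G59860 and AT1G53540). In TPM the first gene named of each pair had the higher preglobular mean, except that AT5G48350 was at 104 ± 30.9 TPM and AT3G62320 at 243 ± 41.9 TPM (SD, n = 3). AT3G28500 stood at 173, 242 and 268 CPM in the preglobular libraries, against 32.5, 34.97 and 60.7 CPM in the globular libraries. AT4G00390 stood at 118, 166 and 195.8 CPM in the preglobular libraries, against 20.3, 16.5 and 21.5 CPM in the globular libraries. A further 3 members are annotated as non-coding RNA, AT1G60505, AT2G04565 and AT1G04877, with preglobular means between 10.4 and 42.4 CPM.

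The highest ratio, 39.7, belonged to CYP706A2, another cytochrome P450, at 12.8, 13.6 and 16.7 CPM in the preglobular libraries and below 1 CPM in every other stage library. It shares 65.4% of its 31-base stretches with its relative CYP706A1, so the split of reads between them is uncertain. AT1G77160, AT5G24790 and AT5G12420, the last of a family of wax ester synthases, followed AT1G53930 with ratios of 21.5, 20.5 and 19.0. CEL3, an endoglucanase that cuts cell wall glucans, and ABCG31, a membrane transporter, had ratios of 12.5 and 11.6. The globular means of these 6 genes were all below 2 CPM.

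Other members were singled out for their known roles after their values were seen. RALFL18 belongs to a family of peptide signals that alter pH at the cell surface, and it stood at 15.05, 32.8 and 47.2 CPM in the preglobular libraries, against 5.15, 2.05 and 2.36 CPM in the globular libraries. DML3, which removes methylated cytosine from DNA, stood at 6.42, 10.5 and 15.2 CPM in the preglobular libraries, against 1.62, 1.34 and 1.41 CPM in the globular libraries. ELF5A-1, a translation factor, stood at 12.0, 18.5 and 29.3 CPM in the preglobular libraries, against 3.49, 2.69 and 3.00 CPM in the globular libraries. For all 3 genes every preglobular library was above every globular one, which the rule nearly fixes and which held for 57 of the 58. For all 3 the lowest preglobular value came from replicate 1.

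That last feature ran through the set. Of the 58 genes, 50 (86.2%) were lowest in preglobular replicate 1, 8 (13.8%) were lowest in replicate 2 and 0 were lowest in replicate 3. Among the 9847 genes with 10 CPM or more at this stage the shares were 22.4%, 26.2% and 51.4%. The median level of the 58 was 16.2, 26.6 and 32.1 CPM in replicates 1, 2 and 3. Genes of the opposite kind were also counted. By the same measure 118 genes were at least 5 times higher at globular than at preglobular, and 100 of these had their highest preglobular value in replicate 1, as had 50.4% of the 9847 genes. The 118 had medians of 4.36, 2.25 and 1.03 CPM in the 3 replicates, below the 10 CPM that defines the 9847, so these shares are of genes at unlike levels. The labels give the 3 samples the same stage, and the part of embryo age in these differences was not tested. Without replicate 1 the rule finds 73 genes, without replicate 2 it finds 60 and without replicate 3 it finds 38.

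**Figure D2:**
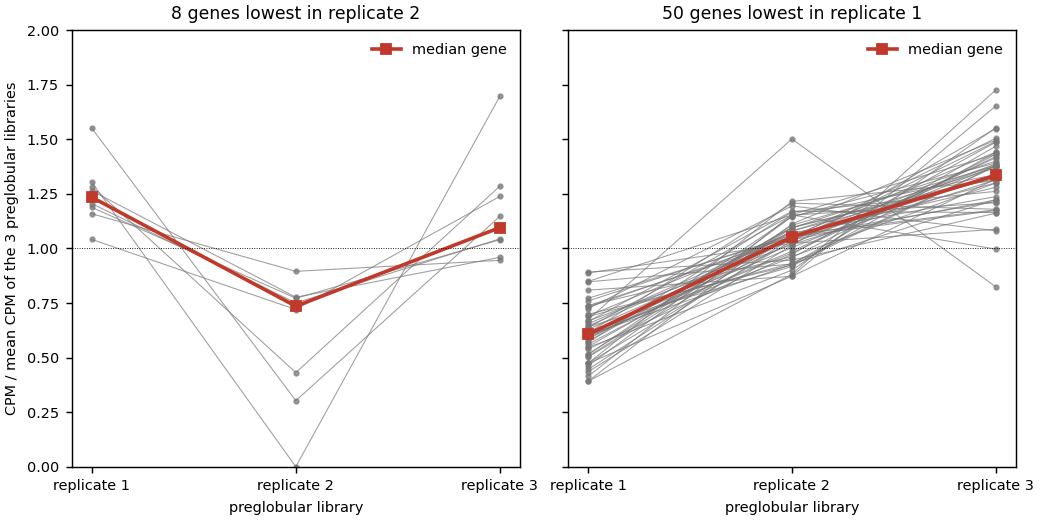
CPM of each gene in each preglobular library, divided by that gene's mean over the 3 libraries (grey points; lines only join the values of a gene), with the median gene in red. The 8 genes lowest in replicate 2 are on the left and the 50 genes lowest in replicate 1 on the right.

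The 8 genes that were lowest in replicate 2 include the heat-related members. MBF1C (AT3G24500), a transcriptional coactivator needed for heat tolerance, stood at 200, 154 and 163 CPM in the preglobular libraries, against 17.61, 23.7 and 34.5 CPM in the globular libraries. AT1G59860, an HSP20-like chaperone, stood at 128, 79.5 and 111 CPM in the preglobular libraries, against 5.75, 4.14 and 12.8 CPM in the globular libraries. AT1G53540, known as HSP17.6C, stood at 17.3, 5.82 and 17.3 CPM in the preglobular libraries, against 1.58, 0.460 and 1.18 CPM in the globular libraries. Every preglobular library was above every globular library for these 3 genes, which the rule nearly fixes, while replicate 2 was the lowest preglobular one for each.

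HSP23.6-MITO (AT4G25200), a small heat shock protein of mitochondria, stood at 16.0, 3.12 and 11.8 CPM in the preglobular libraries, against 0.0830, 0.354 and 0.648 CPM in the globular libraries. AT2G20560, a DNAJ co-chaperone, AT1G14200, a RING protein, and AT5G54165 shared the dip in replicate 2, at 28.7, 34.6 and 12.3 CPM there, against 46.8, 53.3 and 17.84 CPM in replicate 1. AGP41 is the eighth. On a list of 28 heat response genes, 3 of them members, 23 were lowest in preglobular replicate 2. Of the 25 with a preglobular mean of 1 CPM or more, 24 had a higher mean at the preglobular than at the globular stage and 12 were at least 5 times higher, against 30.2% and 1.42% of 16261 nuclear genes at that level. The rule placed the 3 members in both counts in advance. The list was also chosen with earlier results of these data known, so these shares only describe it.

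The summed level of the heat list was 1261, 847 and 1040 CPM in the preglobular libraries and 212, 267 and 268 CPM in the globular libraries. Several of these genes missed the set because of a later stage. HSP17.6A had a mean of 47.1 CPM at the preglobular stage, 1.83 CPM at globular and 21.9 CPM at early torpedo. The chaperone HSP70 had a mean of 151.9 CPM at the preglobular stage, 24.04 CPM at globular and 342 CPM at mature green. HSFA2, a regulator of the heat response, missed the ratio at globular and had a mean of 90.4 CPM at the preglobular stage, 22.4 CPM at globular and 26.3 CPM at mature green. Wound and handling genes, as a list, summed to 228 to 351 CPM in the preglobular libraries and 229 to 262 CPM in the globular libraries. The part of handling in the heat values was not tested.

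The bases before the start of both HSP20-like members are shown because heat shock factors bind repeats of GAA and its complement TTC in opposite orientation. Both are on the plus strand of chromosome 1, read from RefSeq assembly TAIR10.1 and printed 5′ to 3′ up to the base before the annotated start, leaving out bases annotated to another gene. Capitals mark the motif GAANNTTC.
AT1G53540, chr1:19980126-19980298: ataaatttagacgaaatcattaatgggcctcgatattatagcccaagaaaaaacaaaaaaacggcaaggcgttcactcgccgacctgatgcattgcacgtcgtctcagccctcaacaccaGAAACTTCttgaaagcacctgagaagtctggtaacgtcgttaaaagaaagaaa
AT1G59860, chr1:22031093-22031342: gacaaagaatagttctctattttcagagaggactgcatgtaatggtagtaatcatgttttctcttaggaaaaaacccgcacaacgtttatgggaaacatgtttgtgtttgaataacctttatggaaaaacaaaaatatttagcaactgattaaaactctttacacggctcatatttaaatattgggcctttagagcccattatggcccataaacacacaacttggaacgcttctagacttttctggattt

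The motif starts 53 bases before the start of AT1G53540, and these letters are not in the window shown for AT1G59860. Only exact matches were marked, so imperfect repeats of GAA and TTC in either window were not assessed. GAANNTTC reads the same on both strands. In windows of 250 bases before to 50 bases after the start it was found for 8 of the 55 protein-coding members (14.55%) and for 11.58% of 27444 protein-coding genes. A longer form, in which GAANNTTC is followed after 2 bases by GAA or preceded 2 bases before by TTC, was found for 1 of the 55, AT1G53540, and for 0.481% of all. On either strand, TTGAC (the core bound by WRKY factors) was in 52.73% of members and 50.48% of all, CATGCA (the RY core of seed genes) in 12.73% of members and 9.718% of all, and TGTCTC (bound by auxin response factors) in 14.55% of members and 14.19% of all. Shares of members and of all promoters were thus close for each of the short motifs.

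AGP41 (AT5G24105), an arabinogalactan protein of the cell wall, entered the set with a ratio of 5.08 on uneven values. It stood at 17.2, 0 and 22.4 CPM in the preglobular libraries, at 0, 5.20 and 2.30 CPM in the globular libraries and at 3.53, 0 and 2.58 CPM in the early torpedo libraries. It was below 1 CPM in all libraries of the other stages. VGD1 (AT2G47040), a pectin methylesterase of pollen tubes on the pollen and sperm list, was high in the same libraries. It stood at 102.9, 1.096 and 82.8 CPM in the preglobular libraries, at 0.0415, 72.1 and 30.4 CPM in the globular libraries and at 30.3, 0 and 18.1 CPM in the early torpedo libraries, and at 2.27 CPM or less in every other stage library.

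The summed level of the 10 genes on the pollen and sperm list was 147, 50.4 and 130 CPM in the preglobular libraries and 39.2, 158 and 85.3 CPM in the globular libraries. It was 120 to 211 CPM in the early heart and 186 to 208 CPM in the late heart libraries, where VGD1 was low. In early torpedo replicate 2, where VGD1 had no reads, it was 212 CPM. In those libraries the summed level thus came mostly from other genes of the list. Of the 8 list genes tested between early heart and globular, 3 fell, 1 rose (VEX1) and 4 did not pass (GEX1, GEX2, HAP2 and ANX1). The 3 that fell were VGD1, ANX2 and PPME1, with log2 fold changes of −9.09, −7.83 and −7.47. None of the 10 is a member. The defining sperm genes MGH3 and DUO1 were below 1 CPM in all preglobular and globular libraries. The part of pollen in the AGP41 values was not tested, and the gene is 1 of those counted below.

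**Figure D3:**
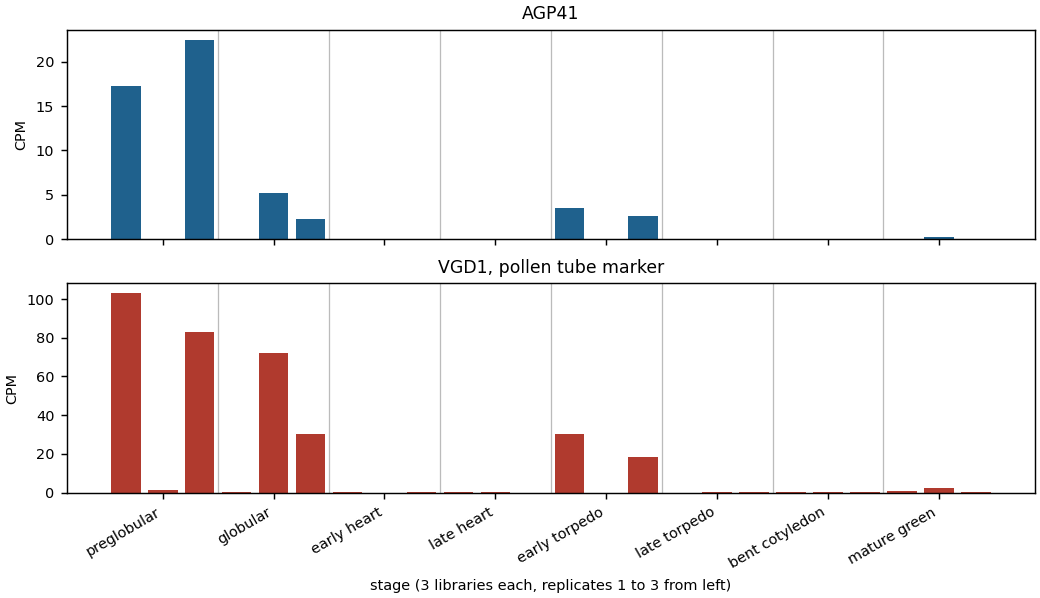
CPM of AGP41 (top) and of the pollen tube marker VGD1 (bottom) in the 24 stage libraries, 3 bars per stage, both axes starting at 0. The same 6 libraries of the preglobular, globular and early torpedo stages carry both genes above 1.5 CPM.

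After the preglobular stage the set faded in steps. Its summed level was 3892, 6345 and 7382 CPM in the preglobular libraries, 642, 726 and 803 CPM in the globular libraries and 359, 257 and 275 CPM in the early heart libraries. It was 136 to 265 CPM in the libraries of the later stages. The number of the 58 genes at 1 CPM or more was 57 to 58 in the preglobular, 48 to 51 in the globular, 29 to 30 in the early heart, 18 to 24 in the late heart and 14 to 15 in the mature green libraries. The mean fell at both steps, globular to early heart and early heart to late heart, for 43 genes, and 20 genes stayed below 1 CPM at every stage from early heart onward. The shares of all genes with such courses were not counted, so these numbers only describe the set.

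**Figure D4:**
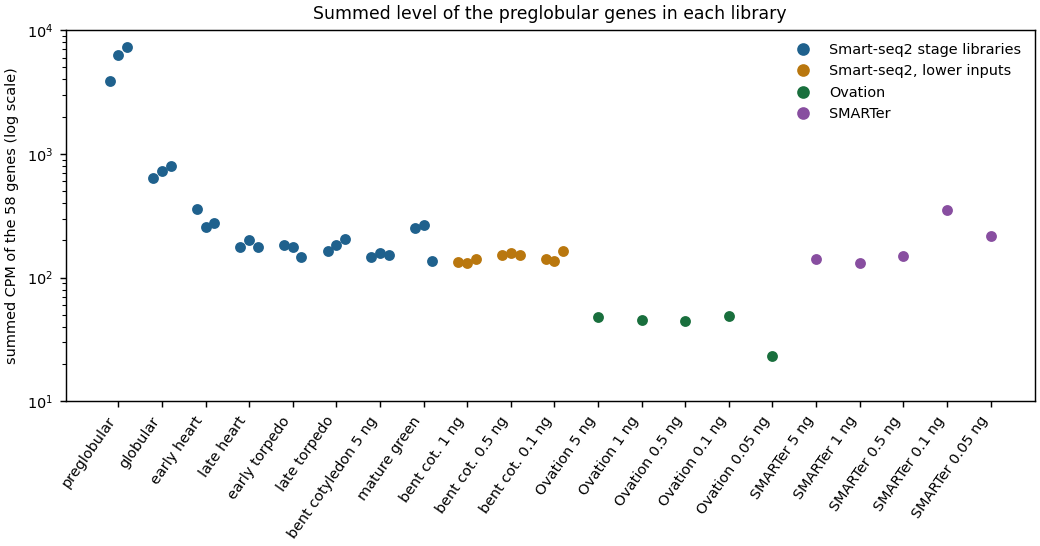
Summed CPM of the 58 genes in each of the 43 libraries, on a log axis, by stage and then by input or kit of bent-cotyledon RNA. The globular libraries sit at 642 to 803 CPM, below the preglobular libraries at 3892 to 7382 CPM and above all others.

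The fall after the globular stage was tested without the preglobular libraries, although the means of the later stages also entered the rule. In edgeR's quasi-likelihood test on the 21 libraries of the 7 later stages, with Benjamini-Hochberg adjustment over 20460 genes, 34 of the 54 members tested were lower at early heart than at globular, 0 were higher and 20 did not pass. Of all genes tested 8.56% were lower and 10.3% were higher, 18.8% in either direction. All 54 fold changes were negative, against 8986 of the 20460, but the 54 include 11 members that were tested only through their globular reads. DESeq2 called 40 members lower and 0 higher, against 12.5% of all genes lower and 10.2% higher. The median log2 fold change was −1.91 for the members and 0.06 for all genes tested. The rule also caps what a later stage can show, because it ties each later mean to the preglobular mean, but it sets no order between globular and early heart. Of the 54, 11 passed the filter on low counts only with the globular libraries. Without those, 24 of 43 members were lower and 0 higher, against 7.74% of all such genes lower. Their median log2 fold change was −1.75, against 0.07 for all such genes. With no filter 32 of the 58 were lower, against 4.72% of all genes. The 4 members not tested were CYP706A2, HSP23.6-MITO, AT1G77160 and emb1796. Leaving out early heart replicate 2 lowered the count to 19, as did leaving out its replicate 3, and leaving out globular replicate 3 lowered it to 22. The share of all genes called lower fell as well, to 4.14%, 4.17% and 5.24% in these fits.

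Among the strongly read genes, AT4G04090 had 14.3, 10.5 and 12.8 CPM at early heart, against 57.3, 56.4 and 79.6 CPM at globular, a log2 fold change of −2.62 (SE 0.22, edgeR adjusted p = 5.7e-06). LCR68 had 8.31, 5.13 and 3.66 CPM at early heart, against 49.4, 81.7 and 106 CPM at globular (log2 fold change −4.04, SE 0.43, edgeR adjusted p = 1.1e-05). AT2G28680 had 5.14, 4.84 and 5.24 CPM at early heart, against 50.9, 29.7 and 44.5 CPM at globular (log2 fold change −3.30, SE 0.43, edgeR adjusted p = 9.6e-05). The early heart and globular libraries did not overlap for any of these genes, but in CPM they did for CYP78A5, the most strongly read member. The share of all genes without overlap between these stages was not counted, here or for the genes below.

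Beside LCR68 and AGP41, the 5 largest called falls were those of AT5G12420, AT5G24790 and AT1G53930, genes with few reads left at early heart. AT5G12420 had 0.0352, 0 and 0.0330 CPM at early heart, against 0.623, 1.06 and 1.24 CPM at globular. AT5G24790 had 0.0704, 0.0290 and 0 CPM at early heart, against 0.747, 0.530 and 0.824 CPM at globular. AT1G53930 had 0.599, 0.0580 and 0.0330 CPM at early heart, against 2.20, 2.79 and 4.36 CPM at globular. The libraries of these 3 genes did not overlap between the stages. They were picked as the largest called falls, so the calls and the lack of overlap add no support. Outside the preglobular and globular stages AT1G53930 reached 0.599 CPM at most, so its test rests on its globular reads. The call of AT1G53930 was lost without early heart replicate 2 (edgeR adjusted p = 0.052). AGP41 was called lower at 0, 0.0290 and 0.0330 CPM at early heart, against 0, 5.20 and 2.30 CPM at globular, with overlap, and its call was lost without any 1 of the early heart libraries or globular replicate 2 (edgeR adjusted p = 0.052 to 0.067).

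CYP78A5 fell less than the median member, with a log2 fold change of −0.76 (SE 0.25, edgeR adjusted p = 0.036), and its early heart value of 206 CPM in replicate 1 reached into the globular range. MBF1C had 13.0, 17.3 and 8.49 CPM at early heart, against 17.61, 23.7 and 34.5 CPM at globular, without overlap and with a log2 fold change of −1.21 (SE 0.35, edgeR adjusted p = 0.019). AT1G59860 had a log2 fold change of −1.97 (SE 0.46, edgeR adjusted p = 0.0068). WOX8 had a log2 fold change of −1.01 (SE 0.38) that did not pass (edgeR adjusted p = 0.072), although its early heart libraries all lay below its globular libraries. Of 25 heat list genes tested at this step, 1 rose, 2 fell and 22 did not pass, and the 2 were MBF1C and HSP23.5.

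At the end of the series most of the set was gone. In the same fit 41 of the 54 members tested were lower at mature green than at globular, 3 were higher and 10 did not pass. Of all genes tested 35.3% were lower and 39.3% were higher, so that 74.6% were called in either direction. With limma on log2(TPM + 1), 47 members were lower and 0 higher, where 57.4% of all genes tested were lower and 19.7% were higher. Of the 43 members that passed the filter without the globular libraries, 31 were lower and 3 higher in edgeR, against 34.9% of all such genes lower. The median log2 fold change was −4.79 for the members, −4.04 with the genes lacking counts held at their bound, and 0.10 for all genes tested. Over the 43 members it was −4.50, or −3.96 with bounds. No counts were found in the 3 mature green libraries for 17 of the 58, and the share of all genes was not counted. Against 3 counts over those libraries, AT4G04090 was at least 703-fold lower at mature green than at globular, AT1G53945 at least 93.3-fold lower, AT2G36550 at least 53.4-fold lower and WOX8 at least 51.9-fold lower. CYP78A5 had 20.8, 19.2 and 7.62 CPM at mature green, against 211, 284 and 202 CPM at globular (log2 fold change −2.94, SE 0.27, edgeR adjusted p = 7.8e-09). The scaling factors of edgeR's TMM method were 0.503 to 0.586 for the mature green libraries and 0.912 to 1.27 for those of the other stages in the fit, so the tested fold changes at mature green are higher than the unscaled CPM would give.

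For the 3 members called higher the stages overlapped before scaling. LCR68 had 181, 200 and 75.1 CPM at mature green, against 49.4, 81.7 and 106 CPM at globular, and a log2 fold change of 1.87 (SE 0.39, edgeR adjusted p = 0.00025). The non-coding RNA AT1G04877 had 1.42, 2.46 and 1.07 CPM at mature green, against 1.12, 1.17 and 0.589 CPM at globular (log2 fold change 1.72, SE 0.47, edgeR adjusted p = 0.0027). SAH7, of a family of cell wall proteins related to pollen allergens, had 10.7, 15.6 and 14.1 CPM at mature green, against 11.3, 13.5 and 20.6 CPM at globular (log2 fold change 0.79, SE 0.21, edgeR adjusted p = 0.0022). On log2(TPM + 1) with limma, where the median of all genes is −0.65, none of the 3 was called and SAH7 was at −0.30 (limma adjusted p = 0.12).

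A few genes were low at the heart stages and higher at a later one. By a measure chosen after the values were seen, a mean of 1 CPM or more at a later stage and at least 3 times the means of both heart stages, these were LCR68, GDU4, PAL3, AT5G23180 and AGP41. GDU4, which promotes amino acid export from cells, stood at 74.3, 123 and 111 CPM at preglobular, at 0.986, 1.65 and 1.09 CPM at early heart and at 18.03, 14.8 and 22.7 CPM at late torpedo. PAL3, a phenylalanine ammonia-lyase, stood at 10.14, 22.6 and 12.4 CPM at preglobular, at 0.098, 0 and 0 CPM at early torpedo, its lowest stage, and at 0.861, 1.87 and 1.57 CPM at bent cotyledon. AT5G23180, of the mediator-associated-like proteins, stood at 29.6, 58.03 and 73.6 CPM at preglobular, at 0.563, 0.319 and 0.792 CPM at early heart and at 4.02, 4.12 and 5.60 CPM at bent cotyledon. In GDU4 and AT5G23180 the later libraries named here all lay above the early heart ones. The choice of these genes and stages nearly fixes this, so it adds no support, and the share of all genes was not counted. Both genes kept well under their preglobular levels.

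**Figure D5:**
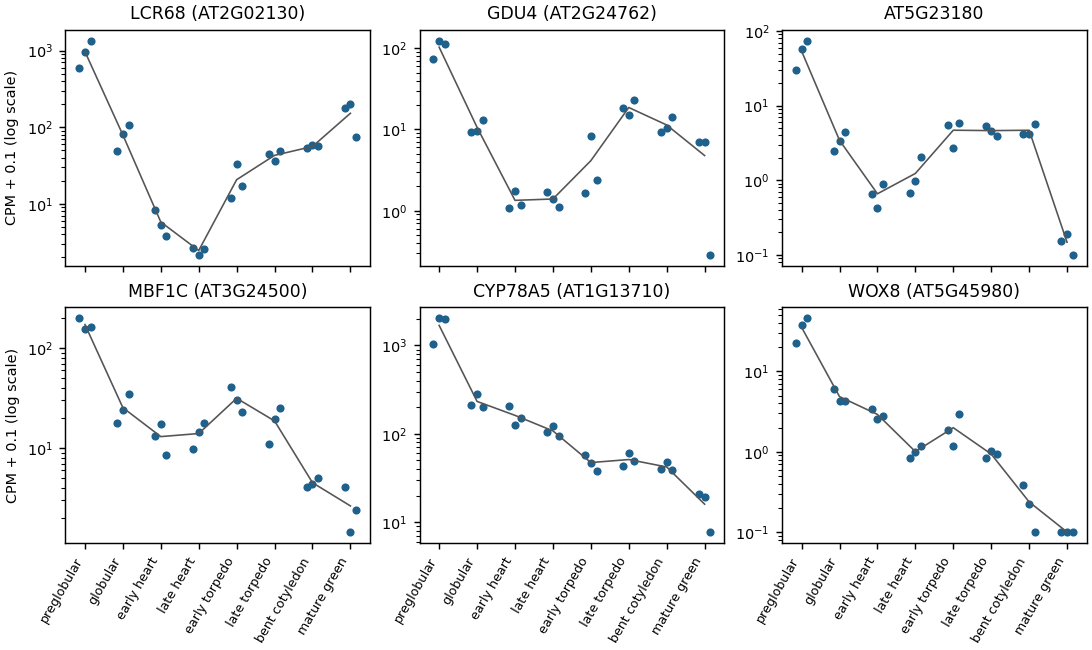
CPM plus 0.1 on a log axis for 6 of the genes over the 8 stages, with the 3 libraries as points and a line through the means. LCR68, GDU4 and AT5G23180 dip at the heart stages, MBF1C has a second, lower level at early torpedo, and CYP78A5 and WOX8 end the series at 7.62 to 20.8 CPM and at no counts.

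The bent-cotyledon libraries that the rule did not use gave the same low level with Smart-seq2. The 58 genes summed to 130 to 163 CPM at 1, 0.5 and 0.1 ng, against 146 to 159 CPM at 5 ng. The Ovation libraries gave 23.4 to 49.2 CPM and the SMARTer libraries 132 to 352 CPM, with 1 library per input and no replicates. LCR68 carries much of the gap between the kits, at 2.69 to 10.07 CPM in the Ovation libraries and 56.9 to 116 CPM in the SMARTer libraries, against 54.0 to 57.7 CPM with Smart-seq2 at 5 ng. At 0.1 and 0.05 ng CYP78A5 carries as much, at 139 and 120 CPM with SMARTer and 28.9 and 11.9 CPM with Ovation. SAH7 had 78.3 CPM in the SMARTer library at 0.1 ng and 0.925 CPM in the Ovation one. In the SMARTer library at 0.05 ng reads came from 2 of the 58 genes, CYP78A5 and LCR68. The preglobular stage itself was prepared with Smart-seq2 and no other kit.

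As genes, the members were short. Their median length was 1388 bases, against 2515 bases for genes with 10 CPM or more at the preglobular stage, and 18 of the 58 were under 1 kb, against 4.69% of those genes. Single-exon genes numbered 19 (32.8%), against 8.93%. Symbols were missing from the annotation for 36 (62.1%), against 53.0%. They lay on all 5 chromosomes, with 16 on chromosome 1, 12 on 2, 6 on 3, 8 on 4 and 16 on 5. The rule used CPM, which is not divided by length, and with TPM it finds 38 genes of which 35 are among the 58.

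Some members are hard to separate from other genes. Of the 58, 34 share no 31-base stretch with another gene and 6 share 10% or more. All 31-base stretches of emb1796 are found in its overlapping neighbour DMS3, and the non-coding AT2G04565 shares 86.5% with the overlapping AT2G04575, so the levels of both are uncertain. MBF1C overlaps 3 annotated loci and shares 19.1%. The edge of the set was gradual. Just inside stood AT5G57480, AT5G14860 and AGP41 with ratios of 5.01, 5.08 and 5.08, and just outside stood AT5G01130, BCA4 (a carbonic anhydrase) and JR1 (a jasmonate-responsive lectin) with 4.97, 4.93 and 4.87. With a ratio of at least 3 the rule finds 121 genes and with at least 10 it finds 15.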

How the data were processed

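The submitters' processing notes name kallisto 0.43.1, cutadapt 1.9.1 and the build TAIR10, while settings and transcript set are not given in the sources used here. Each of the 43 deposited tables lists 54845 transcripts with the authors' estimated counts, the authors' TPM and the deposited transcript lengths in bases, a unit of its own kind. Estimated counts were summed per nuclear locus, leaving out spike-ins, organelle genes and further non-coding RNAs (1445 loci, of which 0 met the rule). Names, gene structure and promoters came from RefSeq (TAIR10.1), where all 32222 loci are listed. Of 53400 deposited nuclear transcripts 99.6% have the length of a RefSeq transcript of their locus, as have all 79 transcripts of the members.

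Counts were rounded and tested by quasi-likelihood in edgeR 4.0.16 under R 4.3.3, with filterByExpr and TMM, calling genes at a Benjamini-Hochberg adjusted p under 0.05. The script was tested on simulated data. The members, gene lists and tests were chosen with earlier results of these data known. Members are named when among the 15 highest preglobular CPM or the 10 highest ratios, on a list, in a product family of 3 or more, just inside the ratio threshold, or among the 5 largest called changes each way. Other members named were chosen after their values were seen. Bounds set a group without counts to 3 counts over its 3 libraries, after TMM scaling, and cover counting error only. Alternatives were RLE factors, DESeq2 1.42.0, limma 3.58.1 on log2(TPM + 1) and log2(TPM + 0.1), other filters and sample sets, a replicate block, other forms of the rule and each replicate left out. Python 3.11.15 with pandas 2.3.3 and numpy 2.4.6 did the rest.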

Additional observations from a re-analysis of the deposited data

How the results depend on the processing

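The number of genes found depends on the rule. It was 32 with a preglobular mean of 20 CPM or more, 121 with a ratio of 3, 15 with a ratio of 10 and 38 with TPM, and 38 to 73 with a preglobular replicate left out. It was 71 with 5 CPM, 76 with TMM-scaled CPM (55 shared), 52 with organelle genes in the totals and 58 with the 1 ng libraries. Members called between early heart and globular were 17 when 5 CPM in 3 libraries was required, which leaves fewer genes tested, and 19 to 30 with a replicate left out. They were 30 to 41 under the other alternatives. Between mature green and globular they were 15 with the 5 CPM filter, 43 to 46 with a replicate left out, and 41 to 47 otherwise. For all genes, RLE factors turned the early heart split of 2101 higher and 1751 lower into 1750 higher and 2145 lower, and log2(TPM + 1) gave 4824 higher and 922 lower. At mature green 8046 higher and 7216 lower became 4024 and 11743 on log2(TPM + 1), and 4114 and 11791 on log2(TPM + 0.1). SAH7 at mature green reversed to −0.30 on log2(TPM + 1) and −0.32 on log2(TPM + 0.1), and the cause was not tested. Single genes were checked under 187 settings, of which 175 kept direction and call, 10 lost the call and 2 reversed.

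Replicate numbers were not used as pairs in the main fit. Residuals of the same number correlated at 0.042, −0.039 and 0.095 between early heart and globular and at 0.066, 0.14 and −0.044 between mature green and globular. Those of different numbers correlated at −0.094 to 0.047 and at −0.15 to 0.070. Values this weak cannot tell whether samples were collected in pairs. With the replicate number as a block, 30 members were called between early heart and globular and 43 between mature green and globular. Of all genes tested, 16.9% and 73.6% were called with the block.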
